A study of Mus musculus with 8 samples.

Results

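The 39 genes described here mark the cells that line blood and lymph vessels, or encode secreted factors that act on those cells. They were taken from a list of names and matched by Ensembl identifier among the 38355 genes of the count tables. All 39 were found, and all 39 passed the filter on low counts that left 16539 genes to test. By their usual role, 15 are pan-endothelial, 6 are capillary and sprouting, 4 are arterial, 5 are venous, 5 are lymphatic and 4 are secreted factors. The list was set by gene name and not by a cut-off on a measured value, but with earlier results of these data known.

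RNA was sequenced from whole colon tumours of mice given azoxymethane, a carcinogen that produces tumours in the colon. The 2 groups are 4 Trp53ΔIEC tumours and 4 Trp53ΔIECAktE17K tumours, 1 tumour from each of 8 mice, so p-values refer to variation between mice. In this notation ΔIEC stands for loss in intestinal epithelial cells, here of Trp53, the gene of the tumour suppressor p53, in both groups. AktE17K stands for AKT, a growth-signalling kinase, carrying the activating substitution E17K, which only the second group has. The series title concerns AKT-dependent activation of the receptor NOTCH3 in a mesenchymal colorectal cancer model. Not given in the sources used here are the promoter that drives the Cre enzyme and the age and sex of the mice. The name places the loss of Trp53 in the epithelium and gives no tissue for AktE17K, and the vessel genes are read from whole tumours.

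Endothelial cells form the inner wall of every vessel and are held together by adhesion molecules such as those encoded by Pecam1 and Cdh5. New capillaries sprout when vascular endothelial growth factors bind their receptors on these cells. Angiopoietins, which bind the receptor TEK, govern whether a vessel is stable or open to remodelling. Arteries, veins and lymph vessels each switch on genes of their own. In the colon, capillaries run between the crypts and lymph vessels lie deeper in the wall, so both can be cut into a whole tumour in varying amounts.

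Between 18572180 and 26268547 reads were assigned to genes in each tumour. Levels are CPM, the counts scaled to a common library size, after scaling the libraries by TMM, the trimmed mean of M values, and are listed for replicates 1, 2, 3 and 4 in that order. Trp53 transcripts stood at 20.8 to 25.8 CPM in Trp53ΔIEC and 24.8 to 37.1 CPM in Trp53ΔIECAktE17K tumours, and Akt1 at 383 to 430.2 and 338 to 409.6 CPM. Neither gene passed the test, and counts per gene from whole tumours cannot check loss of Trp53 in 1 cell type or a single substitution. The titles carry the letter A for Trp53ΔIECAktE17K replicates 1 and 2 and the letter B for the other 6 tumours, whereas in the codes of the count tables the second group has A throughout. Its meaning is not stated. Trp53ΔIECAktE17K replicates 1 and 2 also had the group's highest level for 32 of the 39 vessel genes. The same count was not made over all genes, so whether it is particular to vessel genes was not tested.

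Promoter sequences show where these genes start and which short motifs lie there. RefSeq on GRCm38.p6 gives a window from 250 bases before to 50 bases after the start for 25 of the 39 genes. The 4 windows printed here belong to the 3 genes with the smallest p among those with 1 window, Gja4, Tie1 and Ackr1, and to the gene with the lowest fold change among them, Efnb2. All 4 lie on the minus strand, at chr4:127313990-127314289 for Gja4, chr4:118489800-118490099 for Tie1, chr1:173333454-173333753 for Ackr1 and chr8:8661193-8661492 for Efnb2. They read 5′ to 3′, and capitals mark AGGAAG read on either strand, a form of the site bound by ETS factors such as ERG, itself an endothelial regulator.
Gja4: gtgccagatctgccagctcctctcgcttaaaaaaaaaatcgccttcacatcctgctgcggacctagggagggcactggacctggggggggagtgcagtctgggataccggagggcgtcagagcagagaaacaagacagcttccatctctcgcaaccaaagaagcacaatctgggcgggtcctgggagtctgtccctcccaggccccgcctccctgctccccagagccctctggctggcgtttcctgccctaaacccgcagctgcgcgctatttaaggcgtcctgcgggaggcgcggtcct
Tie1: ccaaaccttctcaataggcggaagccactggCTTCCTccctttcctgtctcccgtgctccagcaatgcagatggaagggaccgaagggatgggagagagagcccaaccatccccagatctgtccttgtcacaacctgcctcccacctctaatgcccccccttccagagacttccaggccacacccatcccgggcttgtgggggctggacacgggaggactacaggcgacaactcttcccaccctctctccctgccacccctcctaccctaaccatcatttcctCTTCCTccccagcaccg
Ackr1: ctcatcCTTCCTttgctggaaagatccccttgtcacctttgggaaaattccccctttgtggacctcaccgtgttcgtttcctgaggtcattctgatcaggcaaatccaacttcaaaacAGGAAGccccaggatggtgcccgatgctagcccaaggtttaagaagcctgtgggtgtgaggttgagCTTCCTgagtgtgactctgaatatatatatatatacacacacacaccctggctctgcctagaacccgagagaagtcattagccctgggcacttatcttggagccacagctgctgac
Efnb2: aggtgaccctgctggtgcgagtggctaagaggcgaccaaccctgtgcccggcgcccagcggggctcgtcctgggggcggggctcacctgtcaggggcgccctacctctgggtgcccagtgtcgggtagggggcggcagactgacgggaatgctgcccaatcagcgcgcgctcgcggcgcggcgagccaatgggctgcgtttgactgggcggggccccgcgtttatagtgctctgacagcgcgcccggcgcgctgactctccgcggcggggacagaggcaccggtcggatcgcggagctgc

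The Tie1 window held the ETS motif at 2 places and the Ackr1 window at 3, while the Gja4 and Efnb2 windows held 0. On either strand, 14 of the 25 vessel genes with a window carried AGGAAG (56%), against 38.4% of all 27025 genes in the promoter table. The motif GTGGGAA, bound by CSL, the DNA-binding partner of Notch, was found for 2 of 25 (8%) against 7.25% of all genes. A site for SOX factors, spelled AACAAT, was found for 4 of the vessel genes (16%), compared with 12.2% of all genes in the table. The letters AGATAA, which factors of the GATA family bind, were found for 3 of the vessel genes (12%), compared with 12.7%. None of the 4 motifs contains another, each was counted separately, and matches were allowed to overlap. A match here is one of letters only. The 14 genes without a window are Angpt2, Sox7, Angpt1, Sox17, Vwf, Cdh5, Pecam1, Lyve1, Nos3, Aplnr, Icam2, Plvap, Esam and Sox18.

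Most of the vessel genes had higher levels in Trp53ΔIECAktE17K tumours, by 2.17-fold in Tie1, the median pan-endothelial gene, but only 3 passed the test across all genes. Sox7, an endothelial transcription factor, Plvap, the protein of capillary wall diaphragms, and Gja4, an arterial gap junction gene, rose 4.24-fold, 1.86-fold and 2.54-fold. No vessel gene was called lower by edgeR, limma-voom or DESeq2, which gave Sox17 no p, and in edgeR's test 1 gene, Sox17, had an unadjusted p under 0.05 in that direction. The 3 calls are 7.69% of the 39 genes, against 4.2% of all tested genes called in either direction, 3.44% called higher and 0.756% called lower (edgeR quasi-likelihood test, Benjamini-Hochberg adjusted p under 0.05). A log2 fold change above 0 was seen for 33 of 39 genes (84.6%), against 51.1% of all tested genes, and the median log2 fold change was 0.91 against 0.01. Groups did not overlap, with every Trp53ΔIECAktE17K tumour higher, for 14 of 39 genes (35.9%), against 8.34% of all tested genes. Every Trp53ΔIECAktE17K tumour was lower for 1 gene, against 5.88% of all tested genes. An unadjusted p under 0.05 was found for 19 genes with higher and 1 with lower level, together 51.3% against 20.8% of all tested genes, of which 12.8% were higher and 8.07% lower. In whole tumours, fewer cells of a type and less RNA per cell cannot be told apart.

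The calls depended on 6 of the 8 tumours. Leaving out any 1 Trp53ΔIEC tumour, or Trp53ΔIECAktE17K replicate 1 or 2, left 0 vessel genes called, with 17 to 24 at an unadjusted p under 0.05. The same 6 fits called 74 to 289 of all genes, against 694 with all 8 tumours, so the loss of calls was not particular to vessel genes. Without Trp53ΔIECAktE17K replicate 3 the calls were again Sox7, Plvap and Gja4, and without replicate 4 they were Sox7, Gja4 and Egfl7. Without the 2 tumours of title letter A, 0 vessel genes and 26 of all 17035 tested genes were called. The median log2 fold change of the vessel genes was then 0.57, and 30 of 39 stayed above 0. With the title letter as a term, 0 vessel genes and 96 of all 16539 tested genes were called, and the vessel gene median was 0.60. No Trp53ΔIEC tumour has the letter A, so the group difference in this fit also rests on Trp53ΔIECAktE17K replicates 3 and 4. The 2 fits are therefore not separate checks. DESeq2 called 16 vessel genes, all higher, against 8.56% of all tested genes called higher and 4.55% lower by that tool. The limma-voom test called the same 3 as edgeR, against 2.61% of all tested genes called higher and 0.695% lower.

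**Figure D1:**
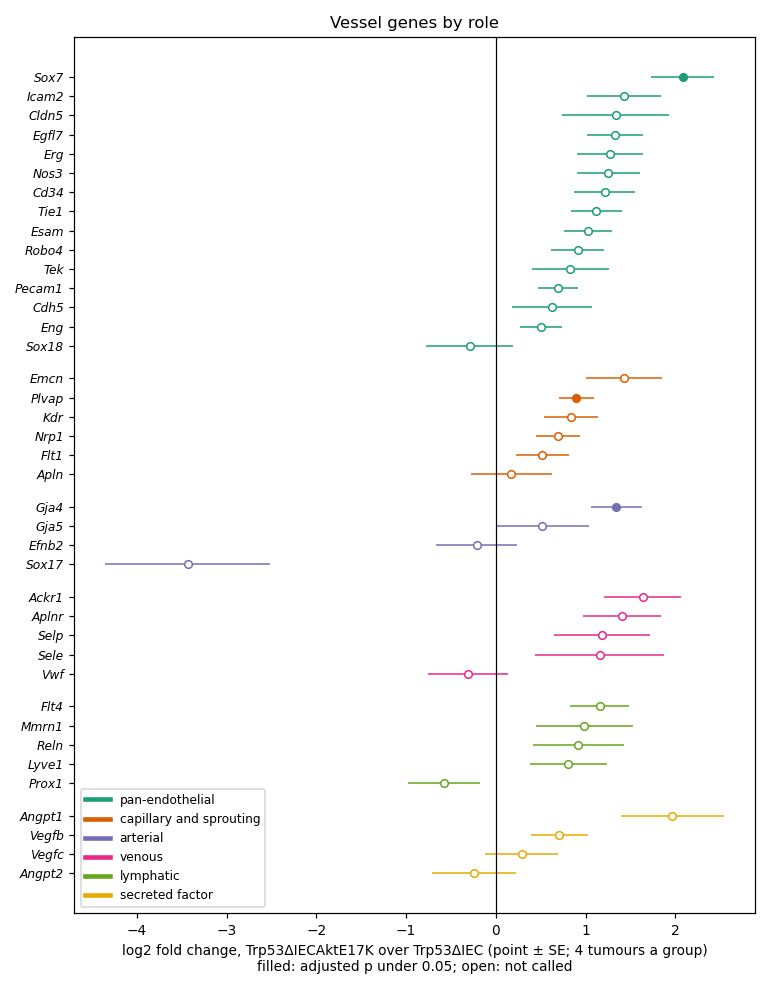
Log2 fold change of each of the 39 vessel genes, Trp53ΔIECAktE17K over Trp53ΔIEC, as point ± SE with 4 tumours a group, grouped and coloured by role, with called genes filled. Sox7, Plvap and Gja4 are the 3 filled points, 33 of 39 points lie to the right of 0, and Sox17 lies far to the left at -3.43.

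Among the 15 pan-endothelial genes 1 rose (6.67%, against 3.44% of all tested genes called higher). A log2 fold change above 0 was seen for 14 (93.3%, against 51.1% of all tested genes), and the median was 1.12. The groups did not overlap for 8 of the 15 (53.3%), all higher in Trp53ΔIECAktE17K, against 8.34% of all tested genes. Sox7, on chromosome 14 from 63943673 to 63950732 (GRCm38), encodes a SOX factor that acts in the formation of vessels. Its level was 3.29, 2.97, 3.30 and 4.14 CPM in Trp53ΔIEC and 23.3, 14.9, 12.2 and 7.82 CPM in Trp53ΔIECAktE17K tumours. All 4 Trp53ΔIECAktE17K tumours were higher, and they spread widely among themselves while the Trp53ΔIEC tumours lay close together. The mean went from 3.42 ± 0.501 to 14.5 ± 6.51 CPM (SD, n = 4), or 2.09 ± 0.35 on the log2 scale (SE), with adjusted p = 0.0228.

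Sox7 was called in 2 of the 8 fits that leave out 1 tumour, with an adjusted p of up to 0.0799, and its log2 fold change was 1.52 without the 2 title-letter A tumours (adjusted p = 0.146). Its close relative Sox18, also active in blood and lymph vessel formation, stood at 34.3, 40.3, 15.1 and 12.7 CPM in Trp53ΔIEC and 19.9, 37.9, 11.6 and 14.2 CPM in Trp53ΔIECAktE17K tumours. Its groups overlapped fully, with 2 high tumours in the first and 1 in the second (log2 fold change -0.29 ± 0.49, adjusted p = 0.777), and without Trp53ΔIEC replicate 2 the log2 fold change was 0.01.

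Egfl7 encodes a protein that endothelial cells secrete into the vessel wall. It measured 24.0, 10.5, 14.9 and 16.8 CPM in Trp53ΔIEC and 40.3, 60.6, 37.2 and 27.8 CPM in Trp53ΔIECAktE17K tumours. No Trp53ΔIEC tumour reached the lowest Trp53ΔIECAktE17K tumour, and the log2 fold change of 1.33 ± 0.31 missed the threshold (adjusted p = 0.0537). For Tie1, an orphan receptor that modulates angiopoietin signalling through TEK, the levels were 16.4, 9.29, 13.6 and 11.1 CPM and then 28.7, 39.7, 18.8 and 22.1 CPM. These groups did not overlap either (log2 fold change 1.12 ± 0.28, adjusted p = 0.0687).

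Esam, a molecule of endothelial tight junctions, had 25.0, 13.0, 15.4 and 15.2 CPM in Trp53ΔIEC and 40.2, 44.7, 25.7 and 29.0 CPM in Trp53ΔIECAktE17K tumours. Its highest Trp53ΔIEC tumour, replicate 1, came within 1 CPM of the lowest Trp53ΔIECAktE17K tumour (log2 fold change 1.02 ± 0.27, adjusted p = 0.0753). Another 4 pan-endothelial genes had groups that did not overlap and an adjusted p between 0.0907 and 0.0996. They were Nos3, the endothelial nitric oxide synthase, Cd34, a sialomucin of capillary endothelium and some progenitor cells, Icam2, an adhesion molecule, and Erg. Their mean levels went from 4.42 to 10.5, from 20.7 to 48.0, from 2.31 to 6.23 and from 3.66 to 8.82 CPM. Nos3 shares 32.3% of its exon bases with other genes, Atg9b among them, and the library kit records no strand, so reads of the overlapping genes cannot be told apart there.

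For the best-known markers of all endothelium the differences did not pass the test. Pecam1, which encodes the junction molecule CD31, measured 48.7, 34.3, 41.5 and 36.2 CPM in Trp53ΔIEC and 68.7, 88.7, 44.1 and 57.5 CPM in Trp53ΔIECAktE17K tumours. Replicate 3 of the second group lay inside the range of the first (log2 fold change 0.69 ± 0.22, adjusted p = 0.129). Cdh5, the gene of VE-cadherin, had 83.0, 24.6, 26.4 and 30.2 CPM and then 77.4, 88.7, 40.5 and 47.0 CPM. Here Trp53ΔIEC replicate 1 was as high as the highest Trp53ΔIECAktE17K tumours while its 3 companions were below all of them (log2 fold change 0.63 ± 0.45, adjusted p = 0.465), and without that tumour the log2 fold change was 1.22. Eng, a co-receptor for bone morphogenetic proteins, went from 71.0 ± 10.4 to 101 ± 29.5 CPM (adjusted p = 0.261) and Robo4, a guidance receptor that steadies the vessel barrier, from 9.68 ± 2.58 to 18.2 ± 5.92 CPM (adjusted p = 0.131). Tek, the angiopoietin receptor, averaged 4.74 and 8.45 CPM and the tight junction gene Cldn5 4.75 and 12.03 CPM, with overlap in both.

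**Figure D2:**
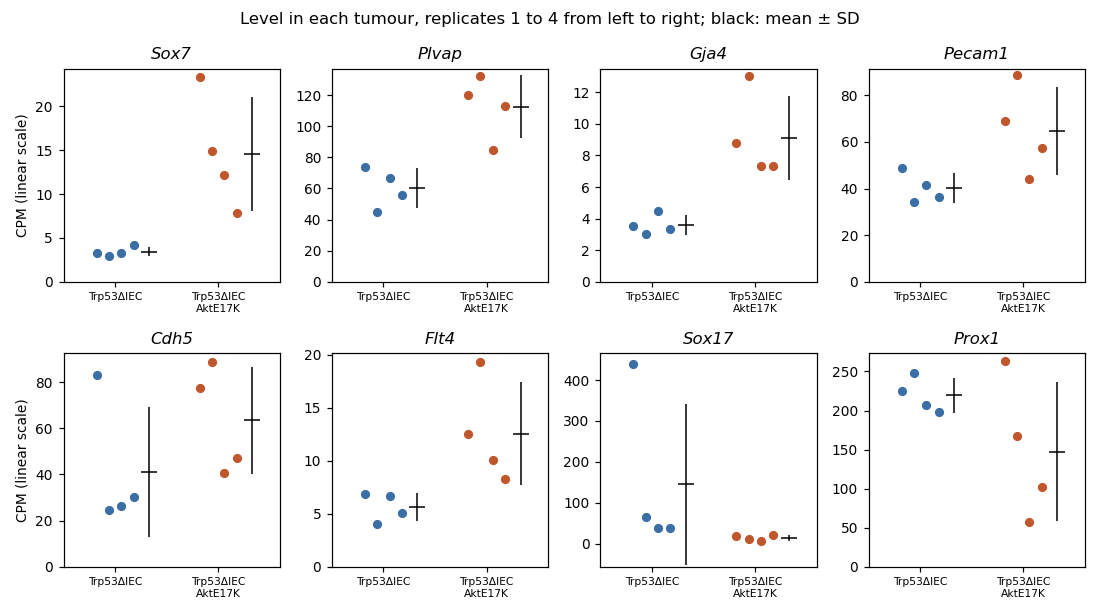
Level in CPM on a linear scale for 8 vessel genes in each tumour, replicates 1 to 4 from left to right in each group, with the mean ± SD in black. The groups do not overlap for Sox7, Plvap, Gja4 and Flt4, nor for Sox17 in the other direction, while for Cdh5 the first Trp53ΔIEC tumour stands at 83.0 CPM, above its 3 companions.

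Of the 6 capillary and sprouting genes, 1 rose (16.7%, against 3.44% of all tested genes called higher). All 6 had a log2 fold change above 0, as had 51.1% of all tested genes, and the median was 0.77. Plvap lies on chromosome 8 from 71497765 to 71511752 and forms the diaphragms of fenestrated capillaries. It measured 73.7, 44.9, 66.9 and 55.9 CPM in Trp53ΔIEC and 119.8, 132, 84.5 and 113 CPM in Trp53ΔIECAktE17K tumours. All Trp53ΔIECAktE17K tumours were higher, replicate 3 by the smallest margin. The mean went from 60.4 ± 12.6 to 112 ± 20.2 CPM, or 0.90 ± 0.19 on the log2 scale (adjusted p = 0.0434). It was called in 1 of 8 fits with a tumour left out, and without the title-letter A tumours the log2 fold change was 0.68 (adjusted p = 0.310).

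Emcn, a sialomucin of capillary and venous endothelium, had 9.91, 4.10, 5.08 and 7.07 CPM in Trp53ΔIEC and 23.4, 26.4, 10.4 and 10.4 CPM in Trp53ΔIECAktE17K tumours. The title-letter A tumours were the 2 high ones, and replicates 3 and 4 lay just above the highest Trp53ΔIEC tumour (log2 fold change 1.43 ± 0.42, adjusted p = 0.106). The receptors for vascular endothelial growth factor showed smaller differences that did not pass the test. Kdr, the main signalling receptor, went from 16.3 ± 3.99 to 29.1 ± 10.6 CPM (0.84 ± 0.30 on the log2 scale, adjusted p = 0.157). Flt1, a receptor that also serves as a decoy, went from 30.0 ± 13.9 to 42.9 ± 6.002 CPM (adjusted p = 0.363), and the co-receptor Nrp1 from 25.8 ± 5.83 to 41.7 ± 11.2 CPM (adjusted p = 0.149). Apln, a peptide made by sprouting tip cells, averaged 14.5 and 16.4 CPM with full overlap (log2 fold change 0.17 ± 0.45, adjusted p = 0.865). Its direction turned without the title-letter A tumours, to -0.11.

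The 4 arterial genes were split in direction, with 2 log2 fold changes above 0, 2 below and a median of 0.15. Of the 4, 1 rose (25%, against 3.44% of all tested genes called higher). Gja4, on chromosome 4 from 127311421 to 127314039, encodes connexin 37, a gap junction protein of arterial endothelium. Its levels were 3.52, 3.01, 4.47 and 3.35 CPM in Trp53ΔIEC and 8.76, 13.0, 7.31 and 7.36 CPM in Trp53ΔIECAktE17K tumours. The groups stood well apart, with replicate 2 the highest of the second. The mean went from 3.59 ± 0.626 to 9.11 ± 2.68 CPM, or 1.34 ± 0.28 on the log2 scale (adjusted p = 0.0406). It was called in 2 of 8 fits with a tumour left out, had an adjusted p of 0.0537 with no filter on low counts, and without the title-letter A tumours its log2 fold change was 1.00 (adjusted p = 0.282).

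Gja5, which encodes the companion connexin 40, had 5.20, 11.2, 2.40 and 4.89 CPM in Trp53ΔIEC and 9.69, 13.5, 4.28 and 6.57 CPM in Trp53ΔIECAktE17K tumours. The groups overlapped (log2 fold change 0.52 ± 0.52, adjusted p = 0.616), and without the title-letter A tumours the direction turned, to -0.17. Efnb2, the arterial ligand of the venous receptor EPHB4 and a gene that intestinal epithelium also uses, averaged 78.1 ± 35.0 and 67.5 ± 30.7 CPM with full overlap (adjusted p = 0.833).

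Sox17 had the widest difference of the vessel genes, in the lower direction, when all 8 tumours were used. It lies on chromosome 1 from 4490931 to 4497354 and encodes a SOX factor of arterial endothelium that is also known from endoderm, the layer from which the gut lining forms. Levels were 441, 65.8, 37.4 and 38.7 CPM in Trp53ΔIEC and 17.8, 10.2, 6.09 and 19.9 CPM in Trp53ΔIECAktE17K tumours. Every Trp53ΔIECAktE17K tumour was lower, and Trp53ΔIEC replicate 1 stood far above all others. The log2 fold change of -3.43 ± 0.92 did not pass the test (adjusted p = 0.0804), and without Trp53ΔIEC replicate 1 it was -1.82 (adjusted p = 0.0778), a smaller difference than the 2.06 of Sox7 in that fit. Per kilobase of exon, Sox17 had 30.5 CPM in Trp53ΔIEC tumours, next to 1.04 CPM for Sox7 and 15.8 CPM for Sox18, its 2 relatives of the same SOX subfamily. Without Trp53ΔIEC replicate 1 these levels were 9.91, 1.05 and 14.0 CPM, so that Sox17 stood below Sox18.

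Of the 5 venous genes 0 were called by edgeR's quasi-likelihood test. An unadjusted p under 0.05 was found for 2 (40%, against 20.8% of all tested genes). DESeq2 called the same 2, Ackr1 and Aplnr. Of the 5 log2 fold changes 4 were above 0, and the median was 1.18. Ackr1 encodes a receptor on venules that binds and carries chemokines. It measured 1.65, 1.39, 1.56 and 0.558 CPM in Trp53ΔIEC and 4.32, 3.29, 2.52 and 6.01 CPM in Trp53ΔIECAktE17K tumours. No overlap was seen, and here replicate 4 was the highest of the second group (log2 fold change 1.64 ± 0.43, adjusted p = 0.0761). The gene shares 25.7% of its exon bases with Cadm3.

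Aplnr, the receptor for the product of Apln and a gene of venous and sprouting endothelium, had 8.19, 7.48, 9.94 and 6.70 CPM and then 21.04, 41.9, 11.1 and 11.8 CPM. Again the title-letter A tumours were high, and the other 2 lay close above the Trp53ΔIEC range (log2 fold change 1.41 ± 0.44, adjusted p = 0.116). Selp, the adhesion molecule P-selectin of venules and platelets, averaged 5.07 ± 3.25 and 11.5 ± 5.77 CPM (log2 fold change 1.18 ± 0.53, adjusted p = 0.254). Sele, the E-selectin of inflamed venules, was near the limit of detection with 3 to 42 reads per tumour (0.467 ± 0.567 and 1.07 ± 0.471 CPM, adjusted p = 0.4). Vwf, the clotting factor stored by venous endothelium and platelets, had 54.6, 60.5, 32.1 and 11.3 CPM and then 35.1, 30.0, 27.04 and 35.9 CPM. The Trp53ΔIECAktE17K tumours lay within the wider range of the Trp53ΔIEC tumours (log2 fold change -0.31 ± 0.44, adjusted p = 0.736).

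Platelets and their precursors also contain the products of Selp, Vwf and Mmrn1. Of 8 megakaryocyte and platelet markers 5 were tested and 0 were called, with 1 at an unadjusted p under 0.05, lower, and DESeq2 also called 0. Their summed level was 25.1 to 33.3 CPM in Trp53ΔIEC and 14.8 to 56.9 CPM in Trp53ΔIECAktE17K tumours, and Gp9 and Treml1 stayed under 0.5 CPM in all 8 tumours.

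For the 5 lymphatic genes 0 were called by edgeR's quasi-likelihood test. An unadjusted p under 0.05 was found for 1 (20%, against 20.8% of all tested genes). DESeq2 called that gene, Flt4. The log2 fold change was above 0 for 4 of the 5, and the median was 0.92. Flt4 encodes VEGFR3, the receptor for the lymphatic growth factor VEGF-C. It measured 6.81, 3.99, 6.65 and 5.03 CPM in Trp53ΔIEC and 12.5, 19.3, 10.1 and 8.24 CPM in Trp53ΔIECAktE17K tumours. The groups did not overlap (log2 fold change 1.16 ± 0.33, adjusted p = 0.0948).

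Lyve1, a hyaluronan receptor of lymphatic endothelium and of some macrophages, had 3.14, 5.64, 10.8 and 7.31 CPM and then 10.2, 8.85, 8.57 and 19.4 CPM. Trp53ΔIEC replicate 3 was inside the range of the second group, whose replicate 4 stood above the rest (log2 fold change 0.81 ± 0.43, adjusted p = 0.326). Mmrn1, a matrix protein of lymphatic endothelium, had 1.19, 2.44, 6.70 and 1.44 CPM and then 6.65, 5.64, 4.96 and 6.01 CPM. Reln, the secreted protein reelin, which lymphatic endothelium makes, had 0.918, 1.39, 3.91 and 0.931 CPM and then 3.98, 3.21, 2.60 and 3.68 CPM. For both genes the same single Trp53ΔIEC tumour, replicate 3, reached the Trp53ΔIECAktE17K range (adjusted p = 0.341 for Mmrn1 and 0.34 for Reln).

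Prox1, the transcription factor that sets lymphatic identity, followed another course. It measured 225, 248, 207 and 198 CPM in Trp53ΔIEC and 263, 167, 57.6 and 102 CPM in Trp53ΔIECAktE17K tumours. The Trp53ΔIEC tumours were alike, while the second group held both the highest and the 3 lowest values (log2 fold change -0.58 ± 0.40, adjusted p = 0.455). Per kilobase of exon its level was 26.2 CPM in Trp53ΔIEC tumours, against 2.301 CPM for Lyve1 and 0.682 CPM for Flt4. PROX1 is also known from the epithelial cells of colorectal tumours, and the cell that holds the RNA is not recorded in whole-tumour counts.

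**Figure D3:**
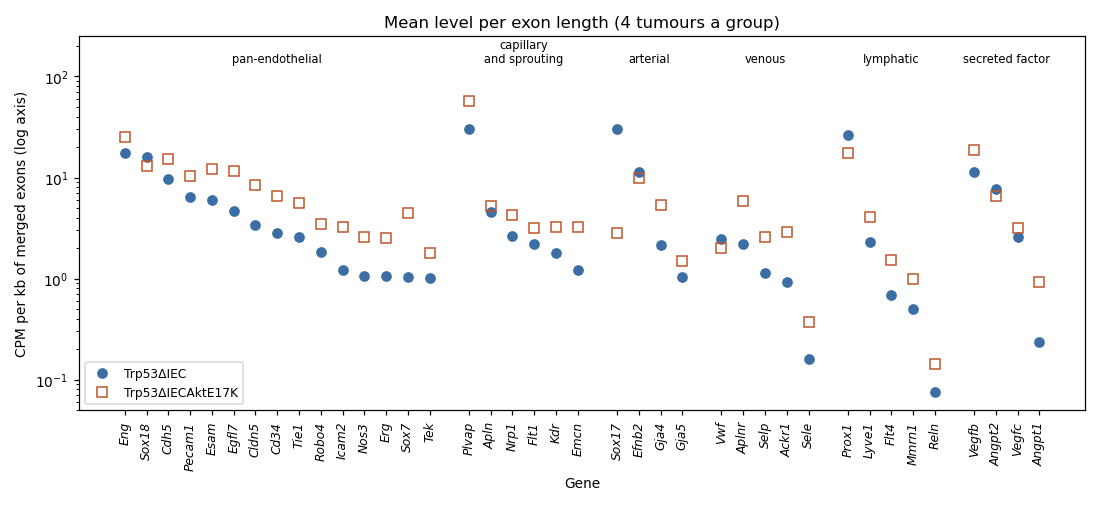
Mean level per kilobase of merged exon length, in CPM per kb on a log axis, for the 39 vessel genes by role, with filled circles for Trp53ΔIEC and open squares for Trp53ΔIECAktE17K (4 tumours a group). In Trp53ΔIEC tumours Sox17 at 30.5, Plvap at 30.4 and Prox1 at 26.2 are the highest, Reln at 0.0753 is the lowest, and without Trp53ΔIEC replicate 1 Sox17 is at 9.91, below Plvap at 28.1 and Prox1 at 26.0.

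Among the 4 secreted factors 0 were called by edgeR's quasi-likelihood test. An unadjusted p under 0.05 was found for 1 (25%, against 20.8% of all tested genes), and DESeq2 called that gene, Angpt1. The product of Angpt1 activates TEK and comes mostly from pericytes and other mural cells. It measured 1.11, 1.09, 2.01 and 0.698 CPM in Trp53ΔIEC and 8.80, 5.93, 2.77 and 1.68 CPM in Trp53ΔIECAktE17K tumours. Replicate 4 of the second group fell within the range of the first, and replicates 1 and 2 stood above all others (log2 fold change 1.97 ± 0.58, adjusted p = 0.104). Angpt2, which endothelial cells release and which often opposes Angpt1, had 51.2, 37.4, 10.1 and 15.3 CPM and then 29.1, 22.3, 20.03 and 25.3 CPM. The Trp53ΔIECAktE17K tumours sat inside the wide Trp53ΔIEC range (log2 fold change -0.24 ± 0.47, adjusted p = 0.813). Vegfb, a ligand of FLT1, went from 18.4 ± 6.29 to 30.0 ± 10.5 CPM (adjusted p = 0.251) and Vegfc, the ligand of FLT4, from 6.32 ± 2.88 to 7.72 ± 2.55 CPM (adjusted p = 0.737). The direction of Vegfc turned without the title-letter A tumours, to a log2 fold change of -0.05.

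Tumours of the same group differed in how high their vessel genes stood. Of the 39 genes, 21 were highest in Trp53ΔIECAktE17K replicate 2 and 11 in replicate 1, while 30 were lowest in replicate 3 and 9 in replicate 4. In the Trp53ΔIEC group, 21 were highest in replicate 1 and 19 lowest in replicate 2. The median pan-endothelial gene stood 0.56 log2 units above its group mean in Trp53ΔIECAktE17K replicate 2 and below it, at -0.54, in replicate 3. These counts describe single tumours and were not made over all genes, and what the replicate numbers stand for is not given.

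**Figure D4:**
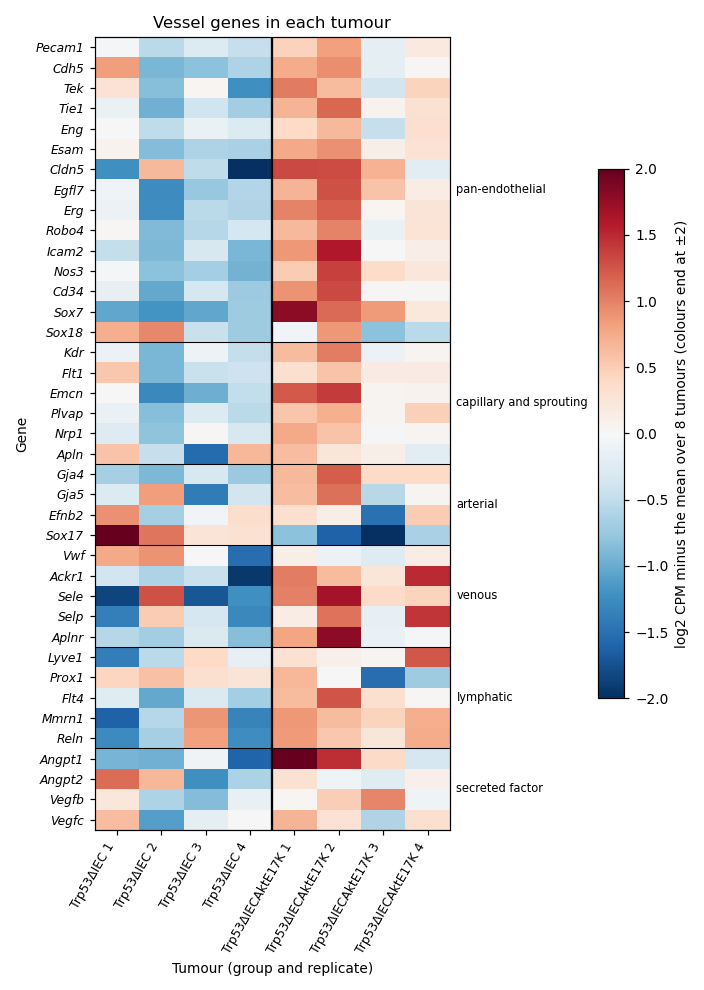
Log2 CPM of each vessel gene minus its mean over the 8 tumours, with genes in rows by role, tumours in columns and colours ending at ±2. Pan-endothelial and capillary genes are mostly blue in the 4 Trp53ΔIEC columns and darkest red in Trp53ΔIECAktE17K replicates 1 and 2. These 2 hold the group's highest level for 32 of 39 genes, a count not made over all genes. Sox17 is blue in all 4 Trp53ΔIECAktE17K columns.

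Ratios of 2 vessel genes within a library do not depend on how libraries are scaled, and 6 were compared. The test was an exact two-sided permutation of the group labels over 70 arrangements, and its p cannot go below 0.0286. The Gja4 to Pecam1 ratio was 0.0726, 0.0882, 0.108 and 0.0930 in Trp53ΔIEC and 0.128, 0.147, 0.166 and 0.128 in Trp53ΔIECAktE17K tumours. These did not overlap, a log2 difference of 0.66 (exact permutation p = 0.0286, 0.171 after Benjamini-Hochberg adjustment over the 6 ratios). Every Trp53ΔIECAktE17K tumour had more Gja4 for its Pecam1, but the adjusted p missed the threshold. For Plvap to Pecam1 the log2 difference was 0.25 (exact permutation p = 0.114, adjusted 0.214), with 3 of 4 Trp53ΔIECAktE17K tumours above the Trp53ΔIEC range.

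The ratio of Angpt2 to Angpt1 was 45.4, 33.7, 4.97 and 21.3 in Trp53ΔIEC and 3.30, 3.75, 7.18 and 14.9 in Trp53ΔIECAktE17K tumours. In the first group 3 tumours were above the whole second group, and replicate 3 was within it (log2 difference -1.73, exact permutation p = 0.114, adjusted 0.214). Vegfc to Flt4 differed by -0.78 (exact permutation p = 0.143, adjusted 0.214). For the venous Selp and the lymphatic Lyve1, each over Pecam1, the log2 differences were 0.59 and 0.20 (exact permutation p = 0.371 and 0.743, adjusted 0.446 and 0.743). Both differences were smaller than the SD between tumours of a group.

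**Figure D5:**
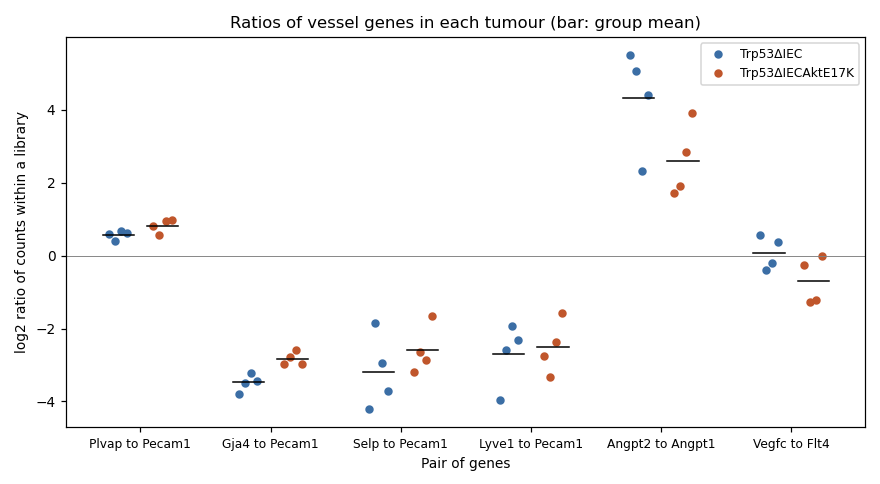
Log2 ratio of the counts of 2 vessel genes within each library for 6 pairs, with a point for each tumour and a bar for the group mean. Only the Gja4 to Pecam1 ratio has no overlap between the groups, with every Trp53ΔIECAktE17K tumour higher.

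A further 79 vessel genes in 3 lists, 75 of them tested, were read from the same fit. Of these 8 rose (10.7%, against 3.44% of all tested genes called higher), and the median log2 fold change was 0.61 against 0.01. In edgeR's test 0 were called lower, with 4 at an unadjusted p under 0.05 in that direction, and DESeq2 called 21 higher and 2 lower, where it called 8.56% and 4.55% of all tested genes. In the list of angiogenic ligands and receptors 4 of 27 tested genes rose (14.8%). Slit3, a guidance ligand of the ROBO receptors, measured 2.53, 1.47, 2.57 and 1.21 CPM in Trp53ΔIEC and 46.4, 44.1, 34.8 and 13.1 CPM in Trp53ΔIECAktE17K tumours. Even the lowest Trp53ΔIECAktE17K tumour was far above the Trp53ΔIEC range (log2 fold change 4.15 ± 0.47, adjusted p = 0.00768). Calcrl and Ramp2, which together form the adrenomedullin receptor of endothelium, rose from 5.50 ± 2.18 to 14.6 ± 2.65 CPM (adjusted p = 0.0456) and from 6.13 ± 1.498 to 14.8 ± 3.05 CPM (adjusted p = 0.0402). Sema3g, a semaphorin of arterial endothelium, rose from 2.299 ± 0.366 to 6.71 ± 2.56 CPM (adjusted p = 0.0419).

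Of 37 other blood endothelial genes 3 rose (8.11%), with a median log2 fold change of 0.61 over the list. Bmx, a tyrosine kinase of arterial endothelium, had 0.268, 0.376, 0.279 and 0.512 CPM in Trp53ΔIEC and 3.39, 2.22, 2.31 and 1.12 CPM in Trp53ΔIECAktE17K tumours. The groups stood apart at a low level (log2 fold change 2.64 ± 0.42, adjusted p = 0.0193). Gpihbp1, which anchors lipoprotein lipase on capillaries, rose from 3.31 ± 0.579 to 11.5 ± 3.91 CPM (adjusted p = 0.0261). Sparcl1, a matrix protein of endothelium that stromal cells also make, rose from 44.7 ± 10.3 to 179 ± 80.9 CPM (adjusted p = 0.0229). In the lymphatic list 1 of 11 tested genes rose (9.09%), where 3.44% of all tested genes were called higher. That gene, Pdpn, encodes podoplanin, found on lymphatic endothelium and on fibroblasts, and went from 17.8 ± 3.07 to 36.9 ± 7.52 CPM (adjusted p = 0.0318). Foxc2 and Tbx1 of that list were lower, at an unadjusted p under 0.05 in edgeR's test (log2 fold change -2.09 ± 0.77 and -3.20 ± 0.89). Their adjusted p were 0.170 and 0.0921, and Trp53ΔIEC replicate 1 stood at 154 CPM for Tbx1. DESeq2 called 3 genes of the list higher and 2 lower. With 1 tumour left out in turn, Slit3 was called in all 8 fits, Bmx and Sparcl1 in 3, Gpihbp1 and Pdpn in 2, and Calcrl, Ramp2 and Sema3g in 1. Without the 2 title-letter A tumours 0 of these 8 genes that rose were called, with adjusted p from 0.0756 for Slit3 to 0.309 for Calcrl.

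Markers of several other cell types were also called higher in Trp53ΔIECAktE17K tumours. Over all tested genes 3.44% were called higher and 0.756% lower. Of 8 pericyte markers 5 were called higher, with a summed level of 142 to 218 CPM in Trp53ΔIEC and 229.8 to 546 CPM in Trp53ΔIECAktE17K tumours. Of 8 smooth muscle markers 7 were called higher, with 308 to 498 and 1131 to 1828 CPM. Of 8 fibroblast markers 4 were called higher, with 2167 to 3325 and 4110 to 6673 CPM. At an unadjusted p under 0.05 in edgeR's test, 7 were higher and 1 was lower. The lower 1 was Pdgfra, at 148 ± 50.1 and 83.0 ± 32.8 CPM (adjusted p = 0.225). Of 8 colon epithelium markers edgeR called 0, with 3 lower at an unadjusted p under 0.05, and DESeq2 called 2 lower. Their sum was 7649 to 9929 and 3946 to 10217 CPM. Of 8 leukocyte markers edgeR and DESeq2 called 0, with 1 at an unadjusted p under 0.05 in edgeR's test, and the sum was 354 to 1040.0 and 396 to 993 CPM. Of 5 tested red cell genes 4 were called higher and 1 lower, Hba-a2, a near copy of Hba-a1, and the sum was 7.56 to 30.7 and 73.0 to 167.5 CPM. With 1 tumour left out, called genes numbered 4 to 6 in the smooth muscle list, 0 to 6 in the pericyte list, and 0 to 5 each in the fibroblast and red cell lists. These fits called 74 to 949 of all genes, against 694 with all 8 tumours. Without the 2 title-letter A tumours 2 smooth muscle genes were called, and 0 in each of the pericyte, fibroblast and red cell lists. That fit called 26 of all 17035 tested genes. The part of these cells in the vessel gene differences was not tested.

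Heart muscle transcripts also differed. Of 9 tested heart muscle genes 7 were called higher (77.8%, against 3.44% of all tested genes), with a summed level of 36.9 to 115 CPM in Trp53ΔIEC and 157 to 225 CPM in Trp53ΔIECAktE17K tumours. Most of the Trp53ΔIEC sum came from Myl7 and Tnnt2, which were not called (means 43.2 and 18.9 CPM, then 32.8 and 28.3 CPM). Of the 10 genes on the list 6 stayed under 0.5 CPM in every Trp53ΔIEC tumour, against 1 in every Trp53ΔIECAktE17K tumour. Myh6, the cardiac myosin, measured 0.0383, 0.0376, 0.223 and 0 CPM in Trp53ΔIEC and 52.6, 47.6, 56.8 and 57.0 CPM in Trp53ΔIECAktE17K libraries. Among the latter it was nearly level, while Pecam1 in the same 4 libraries ran from 44.1 to 88.7 CPM. Hepatocyte genes were mixed. Of 8 tested 2 were called lower (25%, against 0.756% of all tested genes) and 0 higher, by DESeq2 3 and 0. Of the log2 fold changes 4 were above 0 and 4 below. Their sum was 60.4 to 97.2 CPM in Trp53ΔIEC and 19.6 to 144.8 CPM in Trp53ΔIECAktE17K tumours, with Fgb, a fibrinogen gene, at 126 CPM in replicate 3 of the second group. Of the 2 called, Crp, an acute-phase gene of the liver, was at 4.80 to 5.64 CPM in Trp53ΔIEC and at most 0.0423 CPM in Trp53ΔIECAktE17K libraries. Myh6 and Crp follow the groups in every library, so the part of such transcripts in the vessel gene differences cannot be told apart from that of the genotype.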

How the data were processed

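RNA from 8 whole colon tumours was read as counts: the authors deposited, for each tumour, whole-number reads per Ensembl gene that had not been normalised. Tools named in the submitters' processing notes are HTSeq 0.6, STAR 2.3.0, DESeq2 1.8.1, CASAVA 1.8.2 and SAMtools 1.2, with build mm10 and no roles. Not given in the sources used here are the annotation release and strand setting, and the TruSeq mRNA v2 kit of the labels does not mark strand. Of 38355 gene identifiers 36602 (95.4%) were found in GENCODE M21 on GRCm38, which gave symbols, positions and exon lengths. The 5 lines of unassigned reads were set aside. Reads in no feature made up 9.74% to 11.65% of uniquely aligned reads.

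Differences were tested on the deposited counts with edgeR 4.0.16 in R 4.3.3 (filterByExpr, TMM, robust quasi-likelihood F-test, group as the only term), with Benjamini-Hochberg adjustment over 16539 genes and calls at an adjusted p under 0.05. The script was tested on simulated data. Ratios within a library used counts plus 0.5 and exact permutation tests in SciPy 1.17.1. Other scalings, no filter, DESeq2 1.42.0, limma-voom (limma 3.58.1), a replicate block, the title letter and leaving out each tumour were tried as alternatives.

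The vessel genes, the lists of other genes and the tests were chosen with earlier results of these data known. All 39 vessel genes are named, with up to 4 called genes of each further vessel list by smallest p. Foxc2 and Tbx1 were named after their values were seen. Cell type markers are given as sums, with Trp53 and Akt1 as the targeted genes. Single markers named besides those at or near 0 were chosen after their values were seen.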

Additional observations from a re-analysis of the deposited data

Results flagged for a closer look

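In 5 of 90 sets of 4 values, one for each of the 39 genes and 6 ratios in each group, 1 tumour stood far from the other 3 of its group, where chance alone gives about 1 in 20. Cdh5 was at 83.0 CPM in Trp53ΔIEC replicate 1, with the next tumour at 30.2 CPM. Sox17 was at 440.6 CPM in the same tumour, with the next at 65.8 CPM. Sele reached 1.32 CPM in Trp53ΔIEC replicate 2, with the next at 0.233 CPM. Reln reached 3.91 CPM in Trp53ΔIEC replicate 3, with the next at 1.39 CPM. Lyve1 was at 19.4 CPM in Trp53ΔIECAktE17K replicate 4, with the next at 10.2 CPM.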

How the results depend on the processing

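Scaling mattered little: DESeq2 size factors and library size alone each called 3 vessel genes. With TMM scaling kept, limma-voom called 3 and dropping the filter called 2. DESeq2 called 16 vessel genes and 2169 of all genes, against 694 in the edgeR test. With the title letter as a term 0 vessel genes (9 at an unadjusted p under 0.05) and 96 of all genes were called. Without the 2 title-letter A tumours, a comparison chosen after seeing the data, 0 (7) and 26 were called. Both fits compare Trp53ΔIECAktE17K replicates 3 and 4 with the Trp53ΔIEC tumours, so they are not separate checks. Leaving out 1 tumour gave 0 to 3 vessel genes and 74 to 949 of all genes. Whether the replicate numbers of the titles pair the tumours is not given. Deviations from the group means correlated at -0.039, 0.008, -0.243 and 0.009 for same-numbered tumours. For differently numbered tumours they correlated at -0.242 to 0.25. Such values cannot show whether tumours were paired. With the replicate block 0 vessel genes (20) and 50 of all genes were called, and the block left the ratio differences as they were, with an exact sign-flip p of at least 0.125, the smallest possible. Each of these fits has fewer residual degrees of freedom than the main test. The fit without Trp53ΔIECAktE17K replicate 3 called 665 of all genes, and the fit without replicate 4 called 949. The cause of these changes in calls was not tested.

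Directions turned for some genes that had not been called. Apln reached a log2 fold change of -0.085 and Gja5 -0.13 with the title letter as a term, and -0.11 and -0.17 without the title-letter A tumours. Vegfc reached -0.025 and -0.054 in these 2 fits, and Angpt2 0.030 with the replicate block. With 1 tumour left out, Apln ran from -0.13 to 0.45, Sox18 from -0.77 to 0.0089, Efnb2 from -0.42 to 0.10, Angpt2 from -0.54 to 0.20, and the log2 difference of Lyve1 to Pecam1 from -0.22 to 0.47. The cause was not tested. With 4 tumours a group and 3 to 42 reads of Sele per tumour, smaller differences may be missed.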
